A study of Mus musculus with 21 samples.

Results

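Dorsal skin of hairless mice irradiated for 8 weeks was compared with skin of unexposed mice taken in the same week, so that time in the study was held fixed. The comparison rests on the sample titles: 3 arrays of UV week 8 (numbered 551, 552 and 555) and 3 of control week 8 (51, 53 and 55), 6 of the 21 arrays of the series. The mice were Hos:HR-1, an albino hairless strain, females that arrived at 6 weeks of age and rested for 1 week. In the exposed group, lamps with their peak in the UVB range irradiated the back 3 times weekly at a dose that climbed by 1 MED each week until 4 MED, where 1 MED, the minimal dose that reddens skin, was 100 mJ per square centimetre. Control mice received no UV. The other 5 groups, control week 1 and UV weeks 1, 2, 4 and 6, entered the fit to share one estimate of spread and are shown only where they place a week 8 value. The labels number the arrays without tying them to animals, and the Methods speak of 3 mice a group. The p-values measure the spread between arrays within groups, pooled over all 21 arrays, and not that of the 6 compared arrays alone.

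Skin exposed to UVB over weeks thickens: keratinocytes divide faster, the programme by which they turn into the dead, cross-linked cells of the horny layer shifts, and keratins and envelope proteins of injured skin appear beside or in place of those of resting skin. UVB also reaches immune cells that live in the epidermis, such as Langerhans cells, and induces cytokines and interferon-driven genes, while in the dermis fibroblasts make the collagens and proteoglycans of the matrix and the proteases that cut them. The hairless strain loses its first coat and keeps abnormal follicles, so that whole skin of these mice also holds follicle remnants, sebaceous glands, fat and the thin muscle sheet under the skin.

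Promoters of 6 genes described below are shown first. They were chosen because they hold motifs of factors that act in irradiated skin. Whether these motifs had a part in the changes was not tested. Each is the stretch of 250 bases before the gene start, 5' to 3' on the gene's strand, from RefSeq on build GRCm38.p6. The first 3 belong to interferon-stimulated genes or chemokines that were higher after UV, at chr19:34640639-34640888 (plus strand), chr5:92348890-92349139 (minus strand) and chr5:120907526-120907775 (minus strand). Capitals mark GAAA, any 2 bases and GAAA again, on either strand, the core of the interferon-stimulated response element (ISRE), and in Oas1a a pair of matches overlap.
Ifit1: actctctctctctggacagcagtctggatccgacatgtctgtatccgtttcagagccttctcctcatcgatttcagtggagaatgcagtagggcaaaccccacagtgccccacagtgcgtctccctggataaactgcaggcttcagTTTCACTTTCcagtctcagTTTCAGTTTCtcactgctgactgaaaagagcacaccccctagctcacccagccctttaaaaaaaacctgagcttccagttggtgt
Cxcl10: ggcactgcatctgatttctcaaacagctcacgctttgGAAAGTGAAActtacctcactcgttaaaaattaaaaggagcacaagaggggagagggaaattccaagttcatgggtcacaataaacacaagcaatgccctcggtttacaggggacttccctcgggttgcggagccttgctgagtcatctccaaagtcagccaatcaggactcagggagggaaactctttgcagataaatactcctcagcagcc
Oas1a: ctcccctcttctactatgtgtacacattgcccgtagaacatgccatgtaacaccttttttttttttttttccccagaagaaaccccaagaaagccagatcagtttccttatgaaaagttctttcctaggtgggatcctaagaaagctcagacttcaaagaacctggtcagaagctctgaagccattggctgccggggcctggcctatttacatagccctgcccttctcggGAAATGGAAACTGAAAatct
The next 2 belong to envelope genes of the horny layer that were higher after UV, at chr3:93393449-93393698 and chr3:92338890-92339139, both on the plus strand, and capitals mark TGANTCA, the site bound by AP-1.
Rptn: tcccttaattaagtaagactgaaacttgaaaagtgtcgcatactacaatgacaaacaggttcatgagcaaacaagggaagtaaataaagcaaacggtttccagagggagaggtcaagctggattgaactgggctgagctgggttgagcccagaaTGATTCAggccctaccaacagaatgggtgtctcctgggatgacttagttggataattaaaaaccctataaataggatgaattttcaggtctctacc
Sprr2d: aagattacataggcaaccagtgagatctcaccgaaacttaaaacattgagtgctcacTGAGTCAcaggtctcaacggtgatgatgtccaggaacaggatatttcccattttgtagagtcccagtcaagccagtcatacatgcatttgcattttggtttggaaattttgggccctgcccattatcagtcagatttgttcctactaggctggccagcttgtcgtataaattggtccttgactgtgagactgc
The last belongs to Dusp1, an immediate early phosphatase gene that was lower after UV, at chr17:26508473-26508722 on the minus strand, with the cyclic AMP response element TGACGTCA (CRE) in capitals.
Dusp1: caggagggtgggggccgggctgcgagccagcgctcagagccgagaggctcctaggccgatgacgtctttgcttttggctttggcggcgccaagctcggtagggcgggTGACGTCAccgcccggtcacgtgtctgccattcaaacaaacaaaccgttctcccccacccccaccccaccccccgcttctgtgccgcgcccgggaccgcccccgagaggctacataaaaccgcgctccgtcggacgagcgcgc
Searched on both strands, the ISRE letters stood in 936 of 27025 gene symbols with a promoter (3.46%), in 12 of 81 genes called higher (14.8%) and in 9 of 235 called lower (3.83%). Among the 28 measured interferon-stimulated genes with a promoter entry, 12 held them (42.9%). The AP-1 letters stood in 7.82% of all symbols, in 11 of 81 genes called higher (13.6%) and in 18 of 235 called lower (7.66%). The CRE was found in 1.77% of all symbols, in 0 of 81 genes called higher and in 9 of 235 called lower (3.83%). These shares describe the letters in this window and were not tested.

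The arrays of UV week 8 did not resemble each other equally. Across probe sets array 551 correlated more closely with the 3 control arrays (0.985 to 0.987) than with arrays 552 and 555 (0.957 and 0.961), while those 2 correlated with each other at 0.988 and the controls among themselves at 0.994 to 0.996. The beta-actin 3'/5' log2 ratio, which rises as RNA is degraded, was 3.11 to 3.46 in the controls, 2.77 in array 551, and 5.14 and 4.90 in arrays 552 and 555. The Gapdh ratio was 4.85 to 6.21 in the controls and 2.37, 6.09 and 5.93 in the UV arrays. The main groups of genes are therefore given with and without array 551, and the part of RNA quality in the results was not tested beyond the covariate fits given. The tissue label fits its markers. On the log2 intensity scale, keratinocyte genes averaged 13.36 to 13.57 in the controls and fibroblast genes 12.65 to 13.23. Skeletal muscle markers averaged 12.54 to 13.01 and adipocyte markers 12.21 to 12.52, while endothelial markers lay at 5.26 to 5.46. Levels of different probe sets do not measure amounts of cells. Neither of the 2 genes set as Schwann cell markers was measured.

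After 8 weeks of UV, 648 probe sets were lower (1.6% of 40540 tested) and 156 higher (0.385%) at a change of at least 2-fold with an adjusted p of at most 0.05 (limma, Benjamini-Hochberg). After a further quantile normalization the split was 495 lower and 212 higher. Read at 1 probe set per gene, that of highest mean, 293 genes were lower (1.68% of 17403) and 99 higher (0.569%). In 375 of these 392 the 3 UV arrays lay all below or all above the 3 controls. That follows in part from calling them on the same arrays, and over all genes 11.9% lay below and 11.9% above. The median log2 change of all genes was 0.06. Without array 551 the counts of probe sets were 2628 lower and 508 higher, and without array 555 they were 106 and 54. In 178 of the 293 genes called lower, array 551 showed under 0.5 of the change seen in the other 2 (median log2 change -0.62 against -1.58), and in 38 of the 99 called higher (1.04 against 1.51). Genes called in the main fit and in each fit without 1 of the 6 arrays numbered 57 lower (0.328%) and 31 higher (0.178%). They are called the consistent genes below. All of these fits drew their spread from the other groups as well. From the 6 arrays of week 8 alone, 12 genes were called lower and 12 higher.

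**Figure D1:**
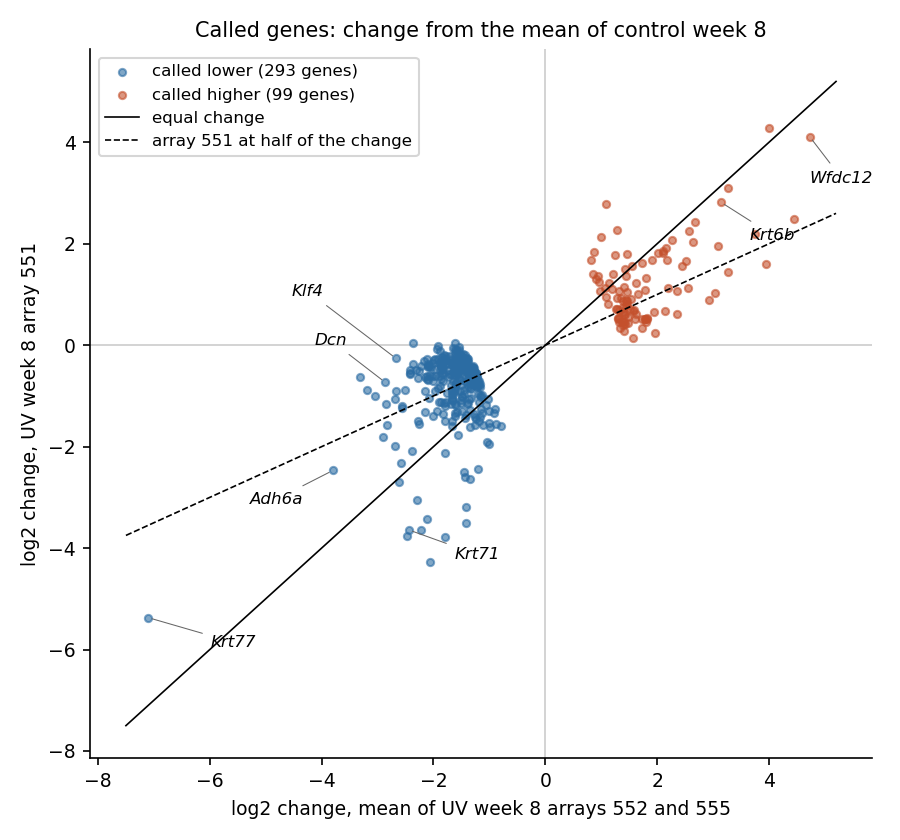
Log2 change from the mean of control week 8 in array 551 (vertical axis) against the mean of arrays 552 and 555 (horizontal axis) for the 392 called genes, with a solid line for an equal change and a dashed line for 0.5 of it. Most genes called lower lie above the dashed line, where array 551 shows under 0.5 of the change (178 of 293), and hair genes such as Krt71 lie on the opposite side, lowest in array 551.

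**Figure D2:**
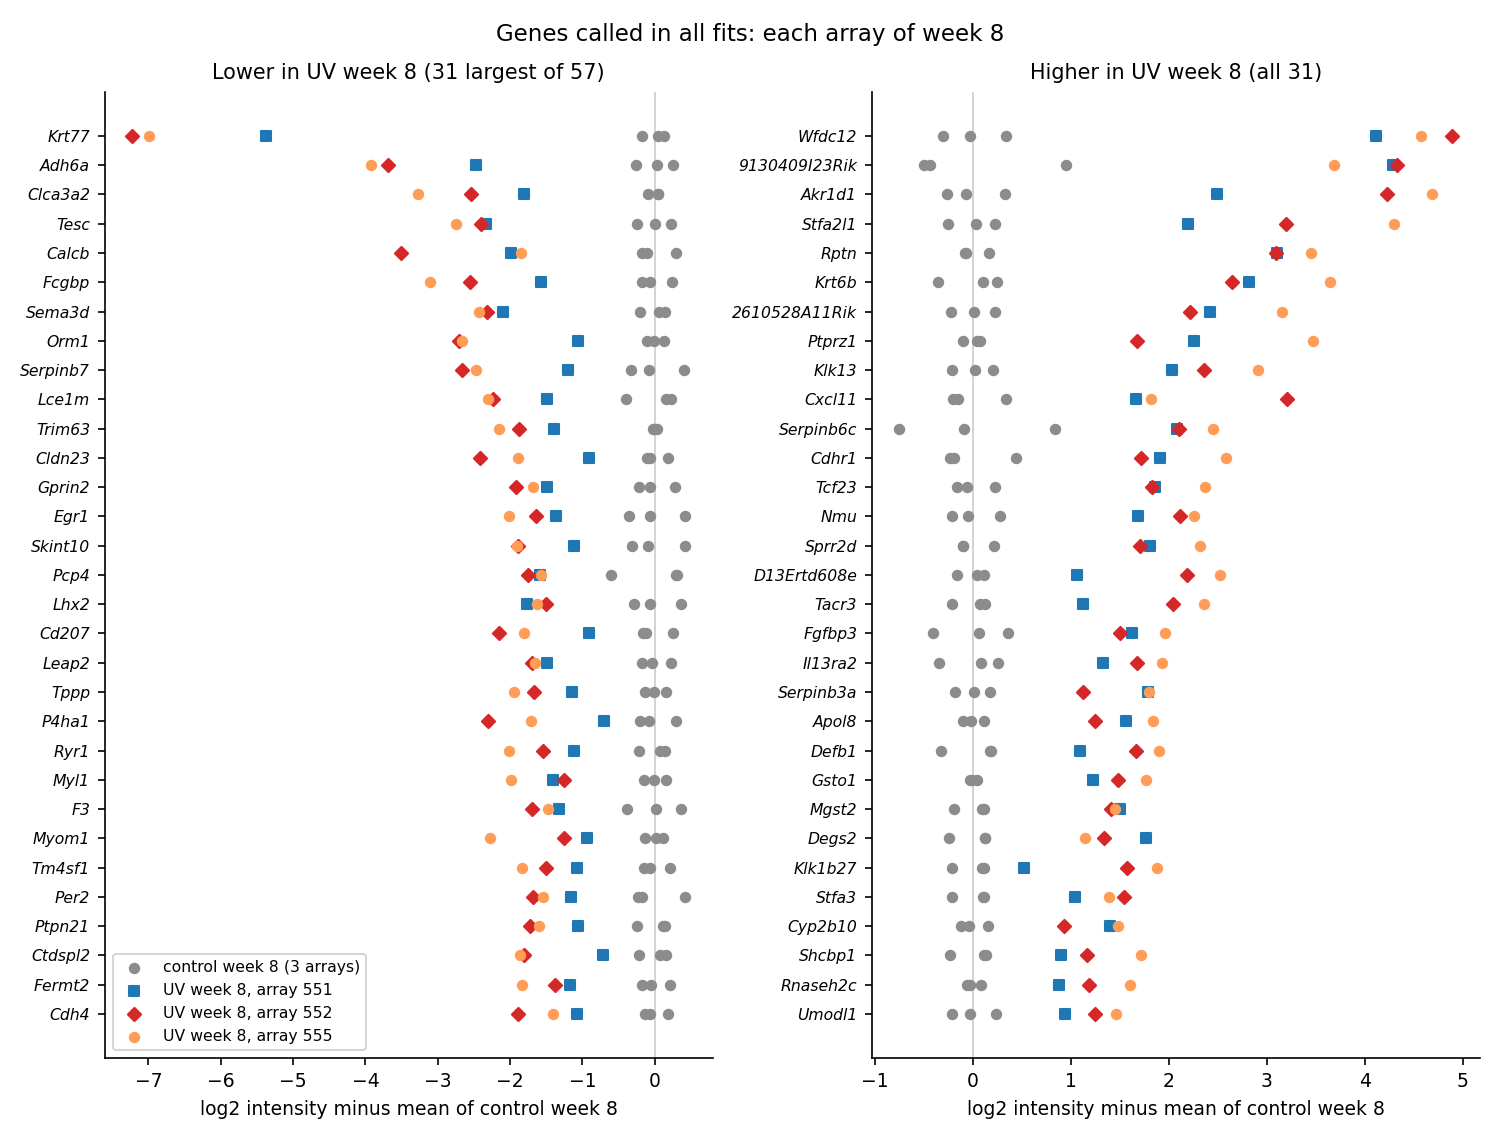
Log2 intensity of each of the 6 arrays minus the mean of control week 8 (horizontal axes) for the 31 largest falls among the 57 consistent genes lower after UV (left) and all 31 higher (right). No UV array overlaps a control array in these genes, which follows in part from calling them on the same arrays. Krt77 and Wfdc12 lie farthest out.

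The keratins of resting epidermis held the largest change among the 392 called genes. Krt77, a type II keratin of the suprabasal layers, measured 13.14, 13.22 and 12.92 on the log2 intensity scale in control arrays 51, 53 and 55, and 7.72, 5.87 and 6.10 in UV arrays 551, 552 and 555. All 3 exposed arrays therefore lay far below all controls, and array 551 fell least. The log2 change was -6.53 (SE 0.73, adjusted p = 0.000167, 92.5-fold lower), and -7.11 without array 551. With the beta-actin ratio as a covariate it was -6.43 (adjusted p = 0.000124). In bulk skin, fewer cells of a type and less RNA per cell cannot be told apart.

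Of the 11 keratins of resting epidermis, 4 were lower and none higher when tested at an adjusted p up to 0.05 (median log2 change -0.99), where over all genes 5.29% were lower and 2.8% higher by this rule. Without array 551 it was 7 of 11, where the background was 18.8% lower and 18.5% higher. Krt2, the late keratin of the upper spinous layer, stood at 4.27 to 4.40 in the controls and 2.76 to 3.25 after UV (log2 change -1.27, SE 0.21, adjusted p = 0.0032), a consistent fall near the bottom of the arrays, whose 20th percentiles lay at 3.33 to 3.63. Krt15, of basal and follicle stem cells, changed by -1.71 (SE 0.41, adjusted p = 0.0242), but array 551 at 10.76 lay close under the lowest control at 10.96. Krt5, the basal keratin, did not pass, since array 551 at 12.91 stood above the controls (12.24 to 12.42) and arrays 552 and 555 at 9.93 and 10.46 below them (log2 change -1.21, adjusted p = 0.2). Krt10, the main suprabasal keratin, had a log2 change of -0.13 (SE 0.12, adjusted p = 0.506).

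Keratins of injured skin did not move as one. Krt6b measured 11.15, 11 and 10.54 in the controls and 13.72, 13.54 and 14.54 after UV. Every exposed array stood above every control by more than the spread within either group, and the log2 change was 3.04 (SE 0.52, adjusted p = 0.00434, 8.22-fold), and 3.15 without array 551. Of the 4 listed wound keratins it alone passed. Krt16 was 9.22 to 9.55 in the controls and 11.69, 8.37 and 9.72 in UV arrays 551, 552 and 555, so that the exposed arrays lay on both sides (log2 change 0.50, adjusted p = 0.698). Krt6a (0.36, adjusted p = 0.61) and Krt17 (-1.25, adjusted p = 0.115) were likewise highest in array 551.

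Among 34 genes of the cornified envelope and granular layer, 2 were lower and 6 higher (median log2 change -0.02), and 9 and 7 without array 551. Repetin (Rptn), an envelope precursor, measured 9.36, 9.35 and 9.59 in the controls and 12.53, 12.52 and 12.88 after UV, a gap with nearly no spread on either side. Its log2 change was 3.21 (SE 0.54, adjusted p = 0.00402, 9.25-fold), while the second probe set of the gene did not pass. The AP-1 letters of its promoter are among those printed above. Lce3f, a late cornified envelope protein, measured 8.62 to 9.21 in the controls and 10.78, 10.83 and 12.99 after UV (log2 change 2.70, SE 0.53, adjusted p = 0.00877). Without array 555 its log2 change was 1.97 and its adjusted p 0.0573. Lce1m went the other way, from 11.14, 11.76 and 11.69 to 10.04, 9.30 and 9.22 (log2 change -2.01, SE 0.23, adjusted p = 0.000187, 4.02-fold lower). Lce1 genes thus lay on both sides, since Lce1f and Lce1g were higher, by 0.43 (adjusted p = 0.0302) and 0.95 (adjusted p = 0.0179).

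Small proline-rich proteins, which cross-link the envelope, had a median log2 change of 0.67 over 9 measured members, and 1 passed. Sprr2d measured 11.34, 11.03 and 11.03 in the controls and 12.94, 12.83 and 13.45 after UV, without overlap (log2 change 1.94, SE 0.28, adjusted p = 0.00134, 3.84-fold). Sprr1b had a log2 change of 1.43 with all exposed arrays above the controls, and its adjusted p was 0.0885. Junction genes were mostly not past the test, with 1 of 20 lower. That gene was Ocln, occludin of tight junctions (log2 change -1.04, SE 0.22, adjusted p = 0.0145), and the claudin Cldn23 fell by more, from 9.04 to 9.34 down to 8.24, 6.74 and 7.26 (log2 change -1.74, SE 0.29, adjusted p = 0.00402). Trp63, the transcription factor that keeps the basal layer, changed by -1.07 (adjusted p = 0.0116).

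Protease inhibitors of the epidermis included the largest rise among the called genes. Wfdc12, a small WAP-domain inhibitor of serine proteases, measured 7.32, 7.6 and 7.97 in control arrays and 11.74, 12.52 and 12.20 in UV arrays. The exposed arrays exceeded the highest control by more than the whole spread of either group. The log2 change was 4.52 (SE 0.41, adjusted p = 2.91e-05, 23-fold), and over the fits without 1 array it stayed between 4.34 and 4.73. Of 19 inhibitors 1 was lower and 7 higher, against 5 and 8 without array 551. Serpina1c stands among the 19 only because the listed name Pi3 was matched to it. It counts as higher without array 551 (adjusted p = 0.00262) but did not pass with all arrays. Stfa2l1 and Stfa3, stefins that block cysteine proteases, rose by 3.23 (SE 0.53, adjusted p = 0.00325) and 1.32 (SE 0.15, adjusted p = 0.00015). Stfa genes form a family of near-identical copies, and probe sets may read more than one.

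Stfa3 measured 12.54 to 12.86 in the controls and 13.79, 14.29 and 14.14 after UV. The intracellular serpins Serpinb6c (log2 change 2.21, SE 0.29, adjusted p = 0.000592) and Serpinb3a (1.57, SE 0.27, adjusted p = 0.00434) were also consistent. Spink12, a Kazal-type inhibitor, measured 6.55, 8.04 and 9.13 after UV against 5.35 to 6.09, with array 551 lowest (log2 change 2.26, SE 0.52, adjusted p = 0.0188). Serpinb7, a serpin of the epidermis, was the one of the 19 that fell, from 10.02, 10.27 and 10.76 to 9.15, 7.68 and 7.88 (log2 change -2.12, SE 0.37, adjusted p = 0.00513).

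Of 20 epidermal serine proteases, 3 were higher and none lower, and without array 551 it was 4 higher and 7 lower. Kallikrein Klk13 rose from 8.58, 8.35 and 8.76 to 10.59, 10.92 and 11.47 (log2 change 2.43, SE 0.33, adjusted p = 0.00079, 5.4-fold). Tmprss11a, a membrane-bound protease of squamous epithelia, lay at the bottom of the arrays in the controls (3.63 to 3.74) and at 5.27, 7.21 and 8.02 after UV, again lowest in array 551 (log2 change 3.16, SE 0.68, adjusted p = 0.0146). In the fits without 1 array its adjusted p reached 0.0963.

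**Figure D3:**
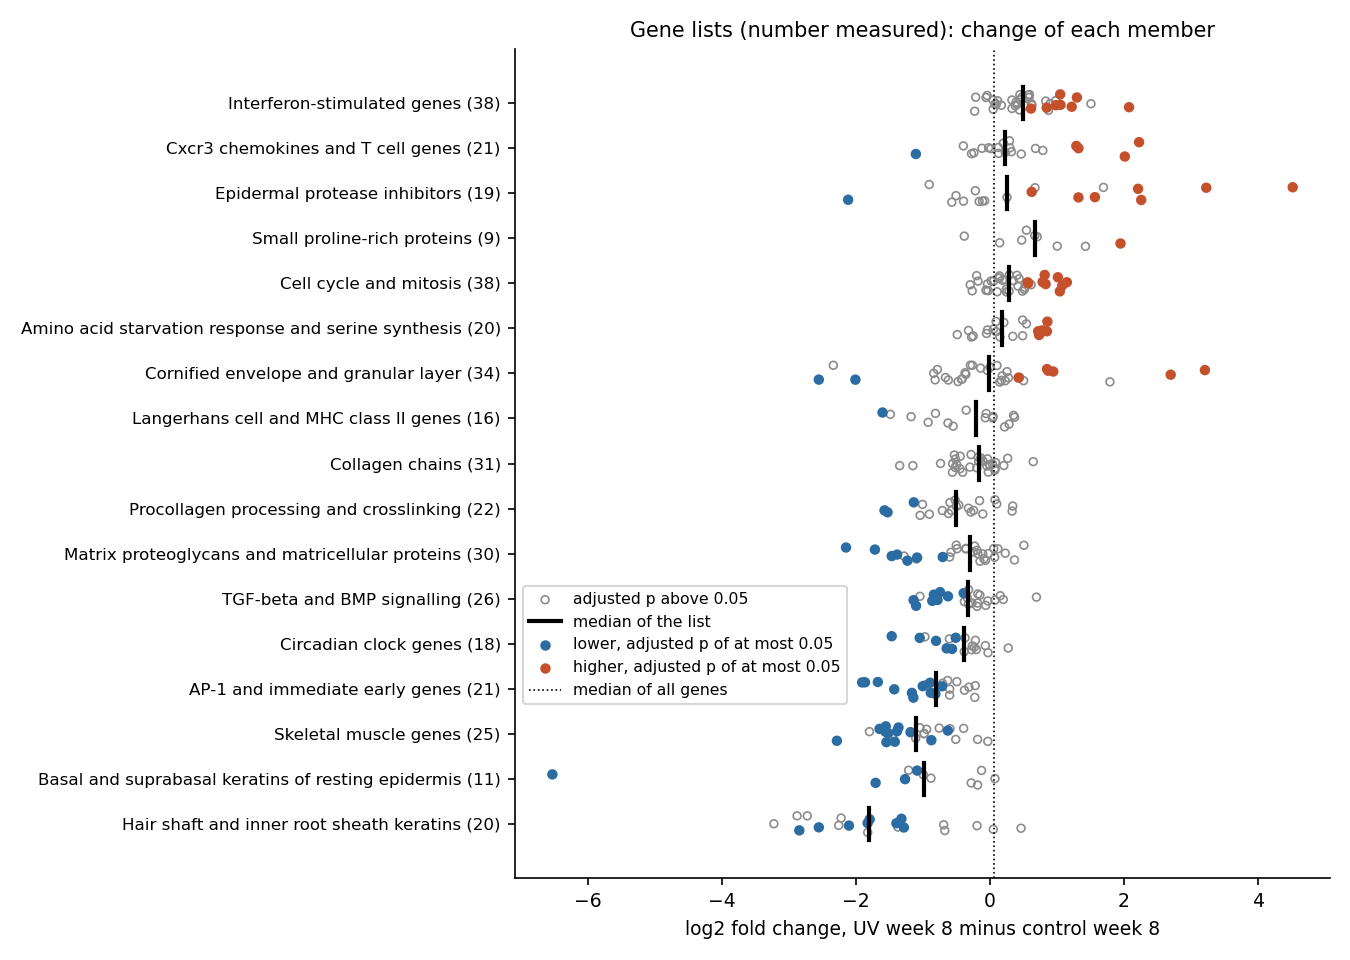
Log2 fold change of each measured member (points, horizontal axis) of 17 gene lists, with filled points for an adjusted p of at most 0.05, a bar for the median of the list and a dotted line for the median of all genes at 0.06. Interferon-stimulated genes and cell cycle genes hold filled points only on the right, and muscle, immediate early and hair keratin genes only on the left.

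Interferon-stimulated genes were higher in 8 of 38 measured and lower in none (median log2 change 0.50, against 0.06 over all genes). Without array 551 it was 17 of 38, without array 552 it was 1 and without array 555 it was 0. Over all genes, 1.03% were lower and 0.741% higher without array 552, and 0.713% and 0.299% without array 555, which is the background for every count given without these arrays. Ifit1, which binds viral RNA that lacks the host cap, measured 7.26, 5.92 and 6.24 in the controls and 7.61, 8.83 and 9.22 after UV. Control array 51 was the highest control and array 551 the lowest exposed array, so that the groups nearly touched. The log2 change was 2.08 (SE 0.44, adjusted p = 0.0135, 4.22-fold), and with array 551 left out 2.55 (adjusted p = 0.000578).

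The same array 51 was the highest control in Usp18, Rtp4, Ifih1, Oas1a, Oasl2, Samhd1 and Parp14. Rtp4, a chaperone of membrane receptors, rose by 1.30 (SE 0.32, adjusted p = 0.0244), and Usp18, which removes the ubiquitin-like Isg15, by 1.22 (SE 0.30, adjusted p = 0.0247). Ifih1, the sensor of long double-stranded RNA, rose by 1.05 (SE 0.22, adjusted p = 0.0121). For the oligoadenylate synthetase Oas1a, whose promoter is shown above, the groups overlapped, since array 51 at 8.96 lay above UV array 555 at 8.82 (log2 change 0.99, SE 0.25, adjusted p = 0.0279). None of the 8 passed in every fit without 1 array, and their highest adjusted p in those fits lay between 0.0715 and 0.149. Genes of MHC class I and the immunoproteasome did not pass in either direction in limma, 0 of 13, with 1 lower at an unadjusted p under 0.05. At that unadjusted p, 5078 of the 40540 probe sets were lower and 6106 higher. Without array 551 the genes of the 13 that passed were all lower. They were Tapbp (log2 change -1.14, adjusted p = 0.00288), H2-K1 (-0.69, adjusted p = 0.0136), Psmb8 (-0.74, adjusted p = 0.0166) and Tap2 (-0.68, adjusted p = 0.0403). Over all genes that fit had 18.8% lower and 18.5% higher.

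The chemokines that bind Cxcr3 on T cells rose together. Cxcl11 measured 5.98, 6.03 and 6.52 in the controls and 7.84, 9.38 and 8.00 after UV, with array 552 highest. It was consistent, with a log2 change of 2.23 (SE 0.35, adjusted p = 0.00282, 4.68-fold). Cxcl9 was 6.44, 6.96 and 7.11 against 8.66, 9.81 and 8.08 (log2 change 2.01, SE 0.45, adjusted p = 0.0169). Cxcl10 was 5.80, 6.12 and 5.82 against 6.83, 7.42 and 7.46 (1.32, SE 0.28, adjusted p = 0.014). In none of the 3 genes did the groups overlap.

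Most T cell genes did not pass the test. The T cell markers Cd3d, Cd3e and Cd3g averaged 7.23 to 7.33 in the controls and 6.84, 6.90 and 6.71 after UV. Most of that fall came from Cd3g, since Cd3e (log2 change -0.24, adjusted p = 0.362) and Cd3d (-0.02, adjusted p = 0.954) did not pass. In the list of Cxcr3 ligands and T cell genes, 4 of 21 were higher and 1 lower. The fourth that rose was Gzmb, granzyme B of cytotoxic cells, at 4.19 to 5 in the controls and 5.2, 6.23 and 5.96 after UV (log2 change 1.29, SE 0.27, adjusted p = 0.0132), and the one that fell was Cd3g of the T cell receptor complex, from 7.02 to 7.19 down to 6.30, 5.6 and 6.02 (-1.11, SE 0.25, adjusted p = 0.0176). Fcgr4, an activating receptor of myeloid cells for IgG, rose by 1.65 (SE 0.37, adjusted p = 0.016), with UV array 551 at 6.66 nearest to the controls (5.70 to 6.27).

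Cd207, langerin of Langerhans cells, measured 9.01, 8.63 and 8.59 in the controls and 7.84, 6.60 and 6.95 after UV. All exposed arrays were lower, array 551 by least, and the log2 change was -1.62 (SE 0.26, adjusted p = 0.0032, 3.07-fold lower), or -1.97 without array 551. With all arrays Cd207 was the only 1 of 16 genes of Langerhans cells and MHC class II to pass. Cd74, the invariant chain, split as Krt5 did, at 11.57 in array 551 and 9.55 and 9.30 in the others against 11.28 to 11.35 (adjusted p = 0.133). Without array 551, Cd74 (log2 change -1.89, adjusted p = 0.00272), H2-Ab1 (-1.28, adjusted p = 0.00211), Epcam (-1.27, adjusted p = 0.000181) and H2-DMa (-0.997, adjusted p = 0.0091) were lower by the test as well. Ccr6 was higher (0.699, adjusted p = 0.0159). In that fit 18.8% of all genes were lower and 18.5% higher. Skint10, of a family of immunoglobulin-like genes of skin and thymus, fell by 1.64 on the log2 scale (SE 0.25, adjusted p = 0.00227). Cd209a, a lectin of dendritic cells, changed by -1.01 (SE 0.27, adjusted p = 0.0327).

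Among 16 acute phase and antimicrobial genes 3 were higher and 1 lower. Defb1, a beta-defensin, measured 9.35, 9.85 and 9.86 in the controls and 10.77, 11.34 and 11.58 after UV (log2 change 1.54, SE 0.21, adjusted p = 0.00079), and both of its probe sets passed. Serum amyloid Saa3 reached 12.49, 12.57 and 12.86, and the controls spread from 10.09 to 11.91, with array 51 on top (1.83, SE 0.41, adjusted p = 0.0174). Orm1, the acute phase protein orosomucoid, was lower, at 9.58, 7.93 and 7.98 against 10.53 to 10.77 (log2 change -2.15, SE 0.38, adjusted p = 0.00478). Chil3, a chitinase-like protein of alternatively activated macrophages, rose by 2.15 (SE 0.43, adjusted p = 0.0105), the only macrophage gene of 24 that passed.

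Decoy receptors of 2 cytokines moved in opposite directions. Il13ra2, which captures interleukin 13, measured 7.24, 7.67 and 7.85 in the controls and 8.92, 9.26 and 9.52 after UV (log2 change 1.64, SE 0.20, adjusted p = 0.000401). Il22ra2, the soluble binding protein of interleukin 22, measured 5.58, 6.01 and 5.84 against 4.51, 4.69 and 4.90 (-1.11, SE 0.20, adjusted p = 0.00598). Both were consistent, and in neither did an exposed array overlap a control. The neuropeptide gene Nmu, neuromedin U, rose by 2.01 (SE 0.34, adjusted p = 0.0039) and the tachykinin receptor gene Tacr3 by 1.84 (SE 0.23, adjusted p = 0.000412), whereas Calcb, which encodes the beta form of calcitonin gene-related peptide, was lower, at 6.75, 5.23 and 6.89 against 8.56, 9.04 and 8.63 (log2 change -2.45, SE 0.37, adjusted p = 0.00218).

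Hair keratins were lower, most of them lowest in array 551. Of 20 keratins of the hair shaft and inner root sheath 8 were lower and none higher (median log2 change -1.81). Krt71, of the inner root sheath, measured 9.53, 9.92 and 10.26 in the controls and 6.26, 7.89 and 7.02 after UV (log2 change -2.85, SE 0.64, adjusted p = 0.017, 7.18-fold lower), and -2.45 without array 551. Krt25 was 11.75 to 12.53 in the controls and 5.89, 11.15 and 9.65 after UV, a range so wide that its change of -3.23 did not pass (SE 1.14, adjusted p = 0.0838). S100a3, a calcium-binding protein of the hair cuticle, was 6.66 to 7.41 against 4.39, 4.62 and 4.34 (log2 change -2.64, SE 0.51, adjusted p = 0.0085).

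None of the 8 hair keratins passed in every fit without 1 array. Lhx2, a transcription factor of follicle progenitors, did, at 5.49, 5.72 and 6.14 in the controls and 4.01, 4.28 and 4.16 after UV (log2 change -1.63, SE 0.25, adjusted p = 0.00223), as did Lgr6, the R-spondin receptor of a follicle stem cell population (-1.32, SE 0.20, adjusted p = 0.00227). In control week 8 minus control week 1 the same 20 keratins had a median of -1.58, and of the 8 that fell after UV only Krt72 differed between the controls by the test (-1.74, adjusted p = 0.03). Values relative to each control are given further on.

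Genes of the dermal matrix differed by class. Fibroblast markers averaged 12.65 to 13.23 in the controls and 12.58, 11.73 and 11.55 in UV arrays 551, 552 and 555. Of 31 collagen chains none passed in either direction in limma (median log2 change -0.17), although before adjustment 11 were lower and 1 higher with a p under 0.05, while without array 551 there were 9 lower and 1 higher. Col1a1 measured 11.73, 11.18 and 11.27 in the controls and 11.24, 9.55 and 9.36 after UV, where array 551 lay among the controls (log2 change -1.35, SE 0.47, adjusted p = 0.0838). Col3a1 was 14.35 to 14.60 against 14.23 to 14.42, a log2 change of -0.17 (adjusted p = 0.4). Of 13 elastic fibre genes none was lower and 1 higher, Ltbp2, which binds to microfibrils (log2 change 0.61, SE 0.14, adjusted p = 0.0178).

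Proteoglycans and matricellular proteins were lower in 7 of 30 and higher in none, and without array 551 in 12 and 3. Decorin (Dcn), which binds collagen fibrils, measured 13.58, 12.92 and 13.39 in the controls and 12.57, 10.60 and 10.27 after UV, with array 551 just under the lowest control (log2 change -2.15, SE 0.60, adjusted p = 0.0392). Lumican (Lum) was 12.26 to 12.81 against 11.91, 10.85 and 10.59 (-1.47, SE 0.40, adjusted p = 0.0362). Neither passed in every fit without 1 array, and with the beta-actin ratio as a covariate the changes were -1.48 and -1.06. Passing in all of them were Ccn2, the connective tissue growth factor, at 11.03, 11.33 and 11.18 against 10.13, 9.72 and 9.99 (log2 change -1.23, SE 0.24, adjusted p = 0.0085), and Gpc6, a heparan sulfate proteoglycan of the cell surface (-1.39, SE 0.24, adjusted p = 0.00434).

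Of 22 genes of procollagen processing 3 were lower. P4ha1, the catalytic subunit of prolyl 4-hydroxylase, measured 8.02, 7.65 and 7.53 in the controls and 7.03, 5.43 and 6.02 after UV (log2 change -1.57, SE 0.26, adjusted p = 0.00363) and was consistent, whereas its second probe set did not pass. Of 22 matrix metalloproteinases and inhibitors 3 were lower and none higher. Timp3, the inhibitor bound to matrix, changed by -2.12 (SE 0.41, adjusted p = 0.00871), Adamts1, an aggrecan-cutting protease, by -1.24 (SE 0.20, adjusted p = 0.00361), and Mmp13, a collagenase, by -1.30 (SE 0.37, adjusted p = 0.0424). Genes of the TGF-beta and BMP pathways were lower in 9 of 26, among them the receptor Tgfbr2 (-0.86, SE 0.23, adjusted p = 0.0321), and Tgfbr3 stayed just outside (-1.04, SE 0.31, adjusted p = 0.0513). Leaving out array 552 or array 555 left 0 of the 26.

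Immediate early genes, which respond within minutes to growth factors and stress, were lower in 11 of 21 and higher in none (median log2 change -0.81), and in 15 of 21 without array 551, 3 without array 552 and 2 without array 555. Dusp1, the phosphatase that switches off MAP kinases, measured 12.16, 12.67 and 12.29 in the controls and 11.07, 11.14 and 10.61 after UV, with array 551 among the others (log2 change -1.43, SE 0.22, adjusted p = 0.00227). Egr1, a zinc finger transcription factor, was 10.93 to 11.70 against 9.92, 9.64 and 9.26 (-1.67, SE 0.30, adjusted p = 0.00576). Fos, a subunit of AP-1, was 11.12, 12.25 and 11.36 against 9.45, 9.88 and 9.68 (-1.91, SE 0.39, adjusted p = 0.0116). These 3 genes were as low in array 551 as in the other exposed arrays or nearly so, unlike Klf4, which keeps the barrier programme and measured 11.79 there against 9.21 and 9.55 in the others and 11.98 to 12.09 in the controls (-1.86, SE 0.51, adjusted p = 0.0384).

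Some genes of growth factor signalling were lower. Errfi1, an inhibitor of the EGF receptor, measured 11.86, 11.11 and 11.32 in the controls and 10.01, 10.37 and 10.14 after UV (log2 change -1.26, SE 0.21, adjusted p = 0.00332). Fgfr3 was 9.50 to 9.63 against 8.57, 7.97 and 7.83 (-1.43, SE 0.25, adjusted p = 0.00513), and Igfbp5, which binds insulin-like growth factors, 11.36 to 11.56 against 9.98, 10.35 and 10.02 (-1.31, SE 0.19, adjusted p = 0.00134). Each of these was consistent. Of 18 genes of FGF and IGF signalling 6 were lower and none higher, among them the receptors Fgfr1 (-0.91, adjusted p = 0.0138) and Fgfr2 (-0.96, adjusted p = 0.0493). Of 12 genes of the EGF receptor family and its ligands 3 were lower, including the ligand Tgfa (-0.66, SE 0.13, adjusted p = 0.00877). With all arrays the receptors of that family did not pass, with log2 changes of -0.05 for Egfr (adjusted p = 0.833), -0.10 for Erbb2 (adjusted p = 0.763) and -0.74 for Erbb3 (adjusted p = 0.0941). Without array 551, Erbb3 passed (-1.14, adjusted p = 0.00135), while Egfr (adjusted p = 0.938) and Erbb2 (adjusted p = 0.219) did not.

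Clock genes were lower in 6 of 18, and in 9 without array 551, 2 without array 552 and 2 without array 555. Per2, a repressor of the clock, measured 5.97, 5.32 and 5.37 against 4.40, 3.87 and 4.00 (log2 change -1.47, SE 0.26, adjusted p = 0.00513), at 1 of its 3 probe sets. Bhlhe40, another repressor, was 9.86 to 10.11 against 9.20, 8.81 and 8.77 (-1.05, SE 0.14, adjusted p = 0.000688). The hour at which each mouse was killed was not analysed here, and its part in these values was not tested. Of 16 genes of the glucocorticoid response 6 were lower, among them the receptor Nr3c1 (log2 change -0.73, SE 0.15, adjusted p = 0.0129), and that list shares Dusp1 and Errfi1 with groups named here.

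Genes of skeletal muscle were lower in 12 of 25 and higher in none (median log2 change -1.11), against 15 without array 551, 6 without array 552 and 2 without array 555. Myl1, a myosin light chain, measured 13.23, 12.92 and 13.06 in the controls and 11.67, 11.82 and 11.08 after UV (log2 change -1.54, SE 0.25, adjusted p = 0.00329). The calcium channel gene Ryr1 (-1.56, SE 0.28, adjusted p = 0.00581) and the muscle ubiquitin ligase gene Trim63 (-1.80, SE 0.31, adjusted p = 0.00434) were consistent too. Titin (Ttn), with 6 probe sets of which 3 passed, was 11.37 to 11.85 against 10.43, 8.92 and 8.57 (-2.28, SE 0.50, adjusted p = 0.0157). How much of the muscle sheet came with each skin sample is not recorded in the labels, and its part in these values was not tested.

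Several genes outside these groups fell evenly across the exposed arrays. Sema3d, a secreted guidance cue, measured 9.51, 9.85 and 9.77 in the controls and 7.62, 7.39 and 7.28 after UV, with little spread within either group. Its log2 change was -2.28 (SE 0.23, adjusted p = 5.85e-05, 4.86-fold lower), both of its probe sets passed, and Sema3c changed by -1.26 (SE 0.20, adjusted p = 0.00313). F3, tissue factor, which starts coagulation, changed by -1.49 (SE 0.22, adjusted p = 0.00175), and Ackr3, a scavenging receptor of the chemokine Cxcl12, by -1.31 (SE 0.21, adjusted p = 0.00313). Tesc, the calcium-binding protein tescalcin, was 9.09, 9.56 and 9.34 against 7, 6.93 and 6.58 (-2.49, SE 0.32, adjusted p = 0.000587), with both probe sets lower.

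Enzymes changed in both directions. Adh6a, an alcohol dehydrogenase, measured 8.88, 9.17 and 9.39 in the controls and 6.67, 5.46 and 5.22 after UV (log2 change -3.36, SE 0.45, adjusted p = 0.000742, 10.3-fold lower), and Clca3a2, a regulator of chloride channels, 11.90 to 12.03 against 10.19, 9.45 and 8.72 (-2.53, SE 0.37, adjusted p = 0.00167). Akr1d1, the steroid 5-beta-reductase, rose from the bottom of the arrays, 2.81, 3.40 and 3, to 5.56, 7.30 and 7.75 (3.81, SE 0.64, adjusted p = 0.0039), at 1 of its 2 probe sets. Glutathione transferase genes differed from each other. Gsto1 was 10.99, 11.04 and 10.97 against 12.23, 12.48 and 12.77 (log2 change 1.5, SE 0.17, adjusted p = 0.000179) and Mgst2 8.36, 8.64 and 8.66 against 10.05, 9.96 and 10 (1.45, SE 0.19, adjusted p = 0.000632). Of 28 antioxidant and glutathione genes 3 were lower and 1, Gsto1, higher, and the other 6 transferases of that list, of the alpha, mu and pi classes, did not pass. Degs2, which makes the phytoceramides of the barrier, rose by 1.42 (SE 0.27, adjusted p = 0.0079).

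Cell cycle and mitosis genes were higher in 9 of 38 and lower in none (median log2 change 0.29), and in 10 of 38 without array 551. Rrm2, a subunit of the reductase that supplies deoxynucleotides, measured 9.71, 10.01 and 9.90 in the controls and 10.59, 10.83 and 11.45 after UV (log2 change 1.08, SE 0.21, adjusted p = 0.00871). Exo1, a repair and replication nuclease, rose by 1.15 (SE 0.20, adjusted p = 0.0042), and Cdc20, which drives exit from mitosis, by 1.01 (SE 0.25, adjusted p = 0.024). Array 555 was highest in all 3, and without it 1 of the 38 was higher. Of 20 genes of serine synthesis and the response to amino acid shortage 5 were higher, among them Phgdh, the first enzyme of serine synthesis (log2 change 0.85, SE 0.16, adjusted p = 0.0085), and Asns, asparagine synthetase (0.86, SE 0.19, adjusted p = 0.0174).

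Several lists held few or no changes by the same test. None of 24 nuclear genes of the respiratory chain, 20 of the sebaceous gland, 13 of mast cells or 9 of Schwann cells and nerve passed in limma with all arrays. Before adjustment, genes of the respiratory chain with a p under 0.05 were 5 lower and 2 higher. It was 2 and 1 for the sebaceous gland, 2 and 2 for mast cells and 1 and 0 for nerve. Of all 40540 probe sets, 5078 were lower and 6106 higher at such a p. Of 25 listed targets of p53 1 was lower and none higher, and of 22 genes of cholesterol synthesis 1 was higher. The p53 gene Trp53 itself was not among the genes measured. Without array 551 and at an adjusted p of at most 0.05, 9 genes of the respiratory chain were lower and 2 higher. It was 7 lower for the sebaceous gland and 8 lower and 1 higher for cholesterol synthesis. Over all genes that fit had 18.8% lower and 18.5% higher. Splicing factors and nuclear RNAs were lower in 9 of 22, and in 0 without array 552 and 0 without array 555.

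**Figure D4:**
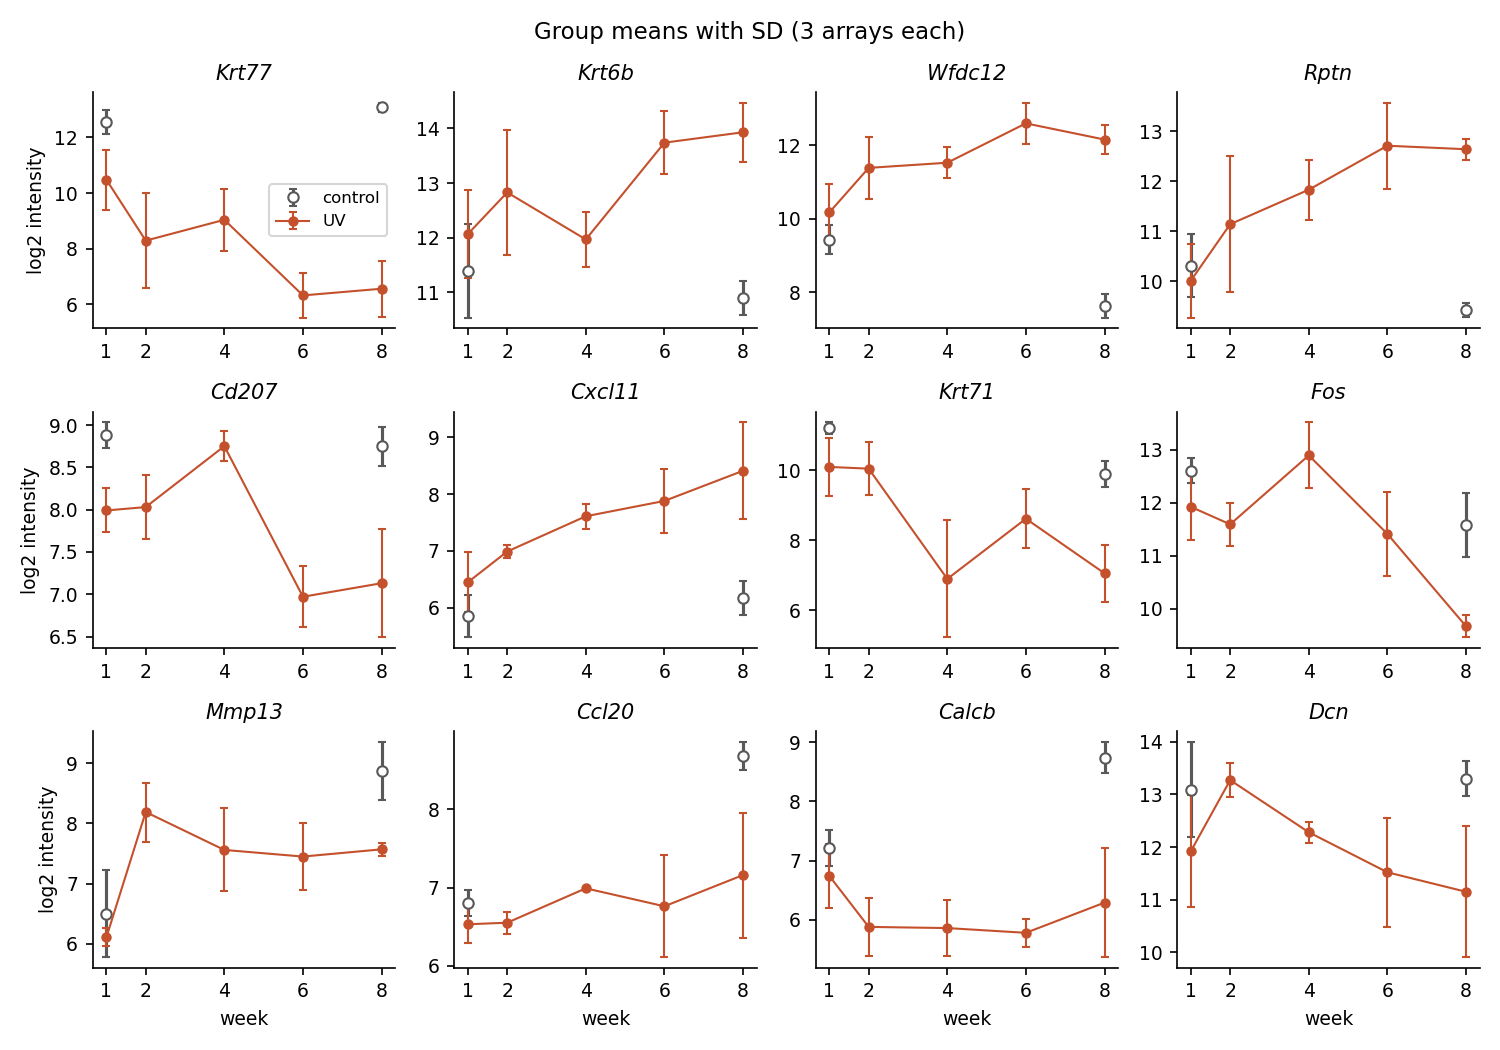
Mean log2 intensity with SD (3 arrays each, vertical axes) by week of the study (horizontal axes) for 12 genes, with open circles for unexposed mice at weeks 1 and 8 and filled circles for UV mice. Krt77, Krt6b and Rptn lie far from both controls at week 8, while for Mmp13 and Ccl20 the control of week 8 lies above that of week 1 and above all UV groups.

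The choice of control changed some values, where the controls of the weeks lay apart. Control week 1 and control week 8 lay 1.5-fold or more apart in 739 of 40540 probe sets. Of these, 85 were among the 648 called lower and 156 called higher. The comparisons with each control share the UV arrays. The difference between the controls shares the control week 8 arrays with the main comparison, so error in those arrays enters both. The values are therefore only set side by side. Mmp13 was lower than control week 8 by 1.30 on the log2 scale but 1.07 above control week 1 (adjusted p = 0.0628), since it was 2.37 higher in control week 8 than in control week 1 (adjusted p = 0.0201). Ccl20, the ligand that draws Ccr6-bearing cells, was 8.48, 8.83 and 8.74 in control week 8 and 8.07, 6.55 and 6.85 after UV (log2 change -1.53, SE 0.31, adjusted p = 0.0103), against a difference of 0.36 from control week 1 (adjusted p = 0.431), with 1.88 between the controls (adjusted p = 0.0258).

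Leap2, the liver-expressed antimicrobial peptide, was at 6.37, 5.96 and 6.10 in control week 8 and 4.65, 4.44 and 4.49 after UV (log2 change -1.61, SE 0.25, adjusted p = 0.00275), with -0.18 relative to control week 1. The clock gene Arntl changed by -0.57 (adjusted p = 0.034) relative to control week 8 and by 0.37 relative to control week 1. Calcb differed by -2.45 and -0.92, and Wfdc12 by 4.52 and 2.73, although its controls did not differ by the test (log2 difference -1.80, adjusted p = 0.174). For hair genes the same-week difference was the smaller one, with -2.85 and -4.15 for Krt71 and -2.64 and -4.23 for S100a3. Krt77 (-6.53 and -6.00), Cd207 (-1.62 and -1.75), Gsto1 (1.5 and 1.53) and Lce1m (-2.01 and -1.93) were much the same relative to either control.

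Among the UV groups, Krt77 averaged 10.48, 8.29, 9.04, 6.32 and 6.56 on the log2 intensity scale after 1, 2, 4, 6 and 8 weeks. Cxcl11 averaged 6.45, 6.99, 7.61, 7.88 and 8.41 in the same order. Fos averaged 11.92, 11.59, 12.89, 11.41 and 9.67, lowest at week 8 and highest at week 4. Differences between UV weeks were not tested here.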

How the data were processed

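The authors hybridised RNA of whole dorsal skin to Affymetrix mouse genome arrays and, per their Methods, computed signals in Expression Console 1.4 with the Microarray Suite 5 preprocessor, whereas the submitters' processing notes name RMA. The deposited values are linear intensities per probe set, already normalized, with array medians of 30.1 to 33.3. Values were floored at 1 and taken to log2, 64 control probe sets were removed, and 40540 probe sets at or above the 20th percentile of an array in at least 1 array were kept. Of these, 32317 had 1 gene symbol in the platform annotation, 853 several and 7370 none. The annotation can be old. limma 3.58.1 in R 4.3.3 fitted 1 mean per group to all 21 arrays, and the contrast UV week 8 minus control week 8 was tested with Benjamini-Hochberg adjustment over all kept probe sets. A probe set was called at a change of 2-fold or more with an adjusted p of at most 0.05, and list members were counted at that p with no minimum fold. A gene with several probe sets was represented by the one with the highest mean. Genes were named by size of change among the called whose groups did not overlap, by membership of the lists, or as passing in all fits that leave out 1 array. For genes named by size of change, the lack of overlap was thus set by the choice. The smallest p that an exact permutation of 3 against 3 arrays allows is 0.1. The gene lists and the comparison were chosen with earlier results of these data known. On simulated data of 40540 probe sets for this contrast, a log2 change of 1.5 was called in 90% of the probe sets given it. A change of 3 was called in 100%. These shares hold for the simulated data only. They do not measure power on the real arrays, since those of UV week 8 did not resemble each other equally. Leaving out 1 real array moved the number of probe sets called lower between 106 and 2628. Tables were handled in Python 3.11.15 with pandas 2.3.3. The number of arrays limits the precision.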

Additional observations from a re-analysis of the deposited data

How the results depend on the processing

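The number of calls moved with most choices while most named genes kept their direction. Against 648 probe sets lower and 156 higher, there were 306 and 101 at 1 probe set per gene, 17 and 15 from the 6 arrays of week 8 alone, 2251 and 407 with array weights, 474 and 140 with the beta-actin ratio as a covariate, 1609 and 236 with the Gapdh ratio, 1054 and 229 against the mean of both controls, 1011 and 311 against control week 1, 1745 and 1036 at an adjusted p without a minimum fold, and 495 and 212 with quantile normalization. At 2-fold with no test there were 1228 and 195. Leaving out 1 array gave 106 to 2628 lower and 54 to 508 higher, and reducing UV week 8 to array 551, chosen after seeing the data, left 10 and 21. Of 106 named genes that passed, 60 passed in every fit without 1 array and 3 in all settings run. Direction turned in 17 fits of named genes: against control week 1 for Mmp13 (1.07), Ccl20 (0.36) and Arntl (0.37), without array 551 for Krt16 (-0.38 to 1.28 over the fits without 1 array) and Krt6a (-0.11 to 0.93), without 1 array for Egfr (-0.11 to 0.02) and Erbb2 (-0.30 to 0.08), with quantile normalization for both (0.10 and 0.03), and from array 551 alone for Krt5 (0.60), Krt17 (0.38), Cd74 (0.26), Erbb2 (0.32), Erbb3 (0.07) and Krt10 (0.01). The cause was not tested. No paired analysis was possible because no array number occurs in both groups.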

Other observations

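Further genes moved by as much as those above without belonging to a list. 9130409I23Rik measured 3.68, 3.62 and 5.07 on the log2 intensity scale in control arrays 51, 53 and 55 and 8.41, 8.45 and 7.80 in UV arrays 551, 552 and 555, so that array 551 stood with the others (log2 change 4.10, SE 0.60, adjusted p = 0.00175, limma). 2610528A11Rik was 7.40, 7.63 and 7.84 against 10.04, 9.83 and 10.77 (2.59, SE 0.43, adjusted p = 0.00361). Cdhr1, a cadherin best known from photoreceptors, was 5.78, 5.15 and 5.11 against 7.25, 7.06 and 7.92 (2.06, SE 0.26, adjusted p = 0.000587), and Ptprz1, a receptor tyrosine phosphatase, 5.38 to 5.55 against 7.74, 7.15 and 8.95, at 1 of its 3 probe sets (2.46, SE 0.43, adjusted p = 0.00493).

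Pcp4, a small calmodulin-binding protein, was lower evenly, at 5.01, 4.85 and 5.03 against 6.00, 6.89 and 6.91 (log2 change -1.64, SE 0.23, adjusted p = 0.00134). Fcgbp, a mucin-like protein that binds IgG, was 9.02 to 9.44 in the controls and 7.63, 6.65 and 6.10 after UV (-2.40, SE 0.41, adjusted p = 0.00442). Probe sets of a gene did not always move alike: only 1 of the several kept for Dcn, Klf4, Timp3, Gpc6, Errfi1, Fgfr3, Igfbp5, Lgr6, Ryr1, Cxcl11, Rrm2, Exo1 and Cdc20 passed the test.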
